A study of Mus musculus with 6 samples.

Results

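The aminoacyl-tRNA synthetase family was examined in mouse 3T3-L1 cells, labelled adipocytes, given flavonoids of the plant Smilax glabra. The 37 genes comprised 19 subunits of cytosolic synthetases, 3 scaffold proteins of the cytosolic multi-synthetase complex and 15 mitochondrial synthetases. They were chosen by gene symbol from a table of 46095 genes, with earlier results of the same comparison known, so every value given for them below is a description. All but Mars2, that is 36 of the 37, had a mean level of 1 FPKM or more and were among the 11464 genes tested. FPKM is the number of fragments of a gene scaled by its length and by library depth, so levels of different genes can be set side by side per length.

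Aminoacyl-tRNA synthetases join each amino acid to its tRNA and so supply the ribosome with charged tRNAs. The cytosolic enzymes serve translation of nuclear-encoded messages, and a second set, also made from nuclear genes, is imported into mitochondria to serve the few proteins made there. Several cytosolic enzymes sit together in a multi-synthetase complex held by the scaffold proteins Aimp1, Aimp2 and Eef1e1, while the others act outside it. In mammalian cells many cytosolic synthetase genes are known targets of ATF4, a transcription factor of the response to amino acid shortage and to stress of the endoplasmic reticulum.

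3T3-L1 cells descend from mouse embryo fibroblasts and turn into fat-storing cells under a hormone cocktail. Messenger RNA was sequenced from 3 samples treated with 0.125 μg/mL of the flavonoids and from 3 untreated samples. Cells of both groups were the same line, were labelled adipocytes and were taken 8 days after differentiation was started or completed, which the labels do not separate. The comparison asks what the flavonoids change in the cells' messenger RNA.

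Whole fragments recovered from the steps of the FPKM values summed to 24621562 to 26355863 in the flavonoids libraries and 21952064 to 25083868 in the untreated libraries. Log2 values of the flavonoids libraries correlated at 0.987 to 0.995 with each other, those of the untreated libraries at 0.967 to 0.989, and libraries of different groups at 0.955 to 0.981. The untreated libraries differed in how level deviated with gene length, with slopes of -0.12, 0.02 and 0.16 log2 units per doubling of length in untreated replicates 1, 2 and 3, against -0.01, -0.02 and -0.03 in flavonoids replicates 1, 2 and 3. Of 12 adipocyte markers 4 were tested and 0 were called. The rest, Adipoq, Plin1, Cd36, Slc2a4, Cidec, Lep, Retn and Cfd, averaged under 1 FPKM in both groups. How far the cells had matured into adipocytes cannot be told from these markers. Fabp4 averaged 170 FPKM with flavonoids and 219 FPKM in untreated cells, and Lpl averaged 262 FPKM with flavonoids and 163 FPKM in untreated cells, neither passing limma's test. The summed adipocyte markers, mostly Fabp4 and Lpl, ran from 346 to 518 FPKM with flavonoids and from 386 to 416 FPKM in untreated cells. The summed fibroblast markers ran from 937 to 1064 FPKM with flavonoids and from 1202 to 1603 FPKM in untreated cells. Of 5 tested, 2, Thy1 and Lum, were called lower, against 5.13% of all tested genes. All 5 had every treated value below every untreated one, and an unadjusted p under 0.05 in limma. Macrophage, endothelial and muscle markers each summed to at most 3.49 FPKM in any library, with Ptprc, Cdh5, Kdr, Myod1 and Ckm listed at 0 in all of them. The part of cell makeup in the synthetase values was not tested. In bulk RNA, fewer cells of a type and less RNA per cell cannot be told apart.

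Flavonoid-treated cells had higher levels of 9 of the 19 cytosolic synthetase subunits, and no member of the family was called lower. The 9 were Wars, Aars, Sars, Iars, Yars, Gars, Nars, Farsb and Lars, with fitted log2 changes of 0.51 to 1.18. None of the 3 scaffold proteins and none of the 14 mitochondrial enzymes tested were called. The count of 9 depended on single libraries: it was 1, Wars, without untreated replicate 2, and 3 without flavonoids replicate 1 or without flavonoids replicate 2. Without untreated replicate 2 the calls higher over all genes also fell, from 557 to 65. The median log2 change of the cytosolic genes was then 0.43, against 0.47 with all libraries. With each library's trend over gene length removed the count of 9 became 14, while the calls higher over all genes rose from 557 to 1234. A call means an adjusted p under 0.05 in limma's test on log2(FPKM + 1) over all tested genes, with Benjamini-Hochberg adjustment. Across all 11464 tested genes 4.86% were called higher, 5.13% lower and 9.99% in either direction, and since the choice of members used the same comparison, nothing is read from the members' counts against those shares. Nothing in the labels says that the 3 samples of a group were separate cultures, and the p-values therefore speak only to the scatter among the libraries at hand, which could be technical in origin.

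**Figure D1:**
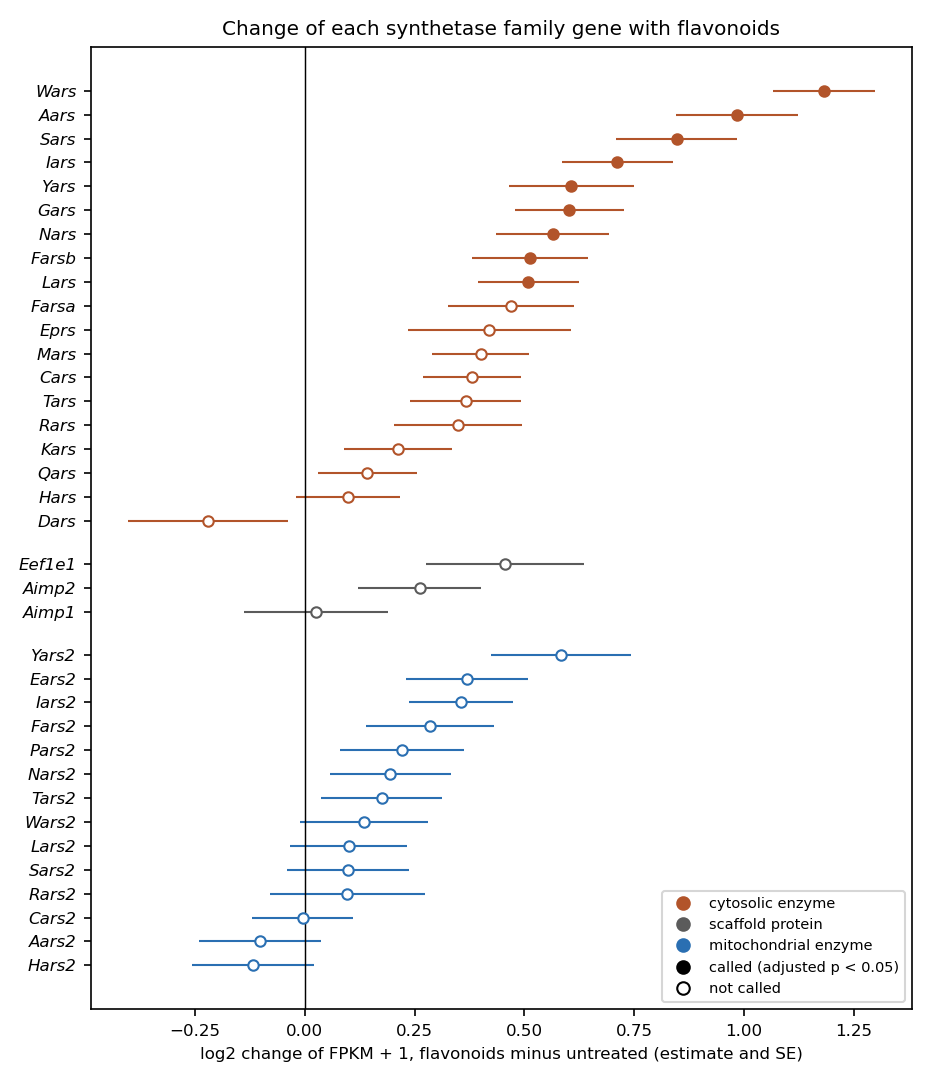
Fitted log2 change of FPKM + 1, flavonoids minus untreated, for the 36 tested genes, as estimate and SE from 3 samples per group, with cytosolic enzymes at the top, scaffold proteins below them and mitochondrial enzymes at the bottom. Filled points are the 9 called genes, all of them cytosolic enzymes, from Farsb and Lars at 0.51 to Wars at 1.18; Dars, at -0.22, is the lowest.

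Wars, the cytosolic tryptophanyl-tRNA synthetase (chr12:108860030-108894174, minus strand), had the largest change of the family. Its levels were 31.8, 28.1 and 32.4 FPKM in flavonoids replicates 1, 2 and 3, against 13.3, 12.0 and 13.7 FPKM in untreated replicates 1, 2 and 3. The groups lay far apart, the lowest treated sample having more than double the level of the highest untreated one. The ratio of means was 2.37 and the log2 change 1.18 ± 0.12 (SE, n = 3 per group).

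Aars, the cytosolic alanyl-tRNA synthetase (chr8:111033144-111057664, plus strand), was the most abundant member per length. It had 302, 310 and 397 FPKM with flavonoids, against 168, 164 and 174 FPKM in untreated cells. Every treated sample was above every untreated one, and flavonoids replicate 3 was the highest. The log2 change was 0.98 ± 0.14 (SE, n = 3 per group), a ratio of means of 2.0. Its exons share 1326 bases with the neighbouring gene Exosc6 on the same strand, so reads from that stretch cannot be assigned with certainty.

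Sars, the cytosolic seryl-tRNA synthetase (chr3:108424865-108445209, minus strand), had 170, 171 and 211 FPKM with flavonoids, against 114, 98.7 and 92.6 FPKM in untreated cells. The groups did not overlap, and again flavonoids replicate 3 stood above the other treated samples. The log2 change was 0.85 ± 0.14 (SE). Seryl-tRNA synthetase also charges the selenocysteine tRNA, the starting point for selenoprotein synthesis.

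Iars, the isoleucyl enzyme and a component of the multi-synthetase complex (chr13:49682100-49734267, plus strand), had 33.1, 33.0 and 35.8 FPKM with flavonoids, against 17.9, 20.1 and 23.4 FPKM in untreated cells. The treated samples lay close together above a more scattered untreated group. The log2 change was 0.71 ± 0.13 (SE).

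Yars, the cytosolic tyrosyl enzyme (chr4:129189760-129219607, plus strand), had the lowest level of the cytosolic set. It had 10.7, 10.0 and 12.2 FPKM with flavonoids, against 8.02, 5.99 and 6.64 FPKM in untreated cells. The groups did not overlap, though untreated replicate 1 came closer to the treated samples than the other two. The log2 change was 0.61 ± 0.14 (SE).

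The other called genes had smaller changes. Gars, which encodes both the cytosolic and the mitochondrial glycyl-tRNA synthetase, had a log2 change of 0.60 ± 0.12 (SE). Nars, the asparaginyl enzyme, had 0.57 ± 0.13, and Lars, the leucyl enzyme of the complex, had 0.51 ± 0.11. Farsb, the beta subunit of phenylalanyl-tRNA synthetase, also had 0.51, with an SE of 0.13, and was the called member nearest to the threshold, with an adjusted p of 0.0426 in limma after Benjamini-Hochberg adjustment. Leaving out any 1 library ended the call of Farsb, with adjusted p of 0.0519 to 0.176 in limma. Farsa, the alpha subunit of the same enzyme, had 0.47 ± 0.14 and was not called. Ratios of means of these called genes were 1.52 for Gars, 1.48 for Nars, 1.44 for Lars and 1.46 for Farsb.

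The windows around the annotated starts of these genes were searched for TGATGNAA on both strands, a form of the C/EBP-ATF element to which ATF4 binds with a C/EBP partner. RefSeq promoter windows of 300 bases, 250 before to 50 after the start on GRCm38.p6, were at hand for 29 of the 37 members. Of the genes with a window, a match was present in 5 of 13 cytosolic (38.5%), in 0 of 3 scaffold and in 0 of 13 mitochondrial ones. The share was 1219 of all 27025 genes with a window (4.51%) and 2.42% of the 7985 tested genes matched to a window by symbol. Members were matched by synonym as well, which the 7985 were not. The 5 are shown from 130 bases before to 30 bases after the start, 5′ to 3′ on the gene's strand, with the match in capitals. In Yars the match reads along the gene's strand, and in the other 4 it lies on the opposite strand and so appears as TTGCATCA or TTTCATCA. The windows are Aars (chr8:111033712-111033871, plus strand), Gars (chr6:55037871-55038030, plus strand), Iars (chr13:49682000-49682159, plus strand), Tars (chr15:11399629-11399788, minus strand) and Yars (chr4:129189773-129189932, plus strand). Sars (chr3:108445230-108445389, minus strand), a called gene, and Yars2 (chr16:16302835-16302994, plus strand), the mitochondrial partner of Yars, are shown beside them as members without a match.
Aars: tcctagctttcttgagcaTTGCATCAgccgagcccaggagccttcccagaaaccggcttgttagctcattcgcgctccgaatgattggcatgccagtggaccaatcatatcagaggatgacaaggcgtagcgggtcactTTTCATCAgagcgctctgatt
Iars: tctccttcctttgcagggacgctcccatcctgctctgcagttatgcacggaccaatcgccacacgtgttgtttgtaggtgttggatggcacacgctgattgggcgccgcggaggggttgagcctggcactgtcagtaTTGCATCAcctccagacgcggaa
Yars: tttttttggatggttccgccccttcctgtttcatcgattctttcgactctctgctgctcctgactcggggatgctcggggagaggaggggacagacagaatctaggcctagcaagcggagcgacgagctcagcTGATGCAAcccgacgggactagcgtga
Gars: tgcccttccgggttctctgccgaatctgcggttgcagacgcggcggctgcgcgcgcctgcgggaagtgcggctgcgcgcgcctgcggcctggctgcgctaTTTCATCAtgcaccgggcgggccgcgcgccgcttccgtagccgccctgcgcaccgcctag
Tars: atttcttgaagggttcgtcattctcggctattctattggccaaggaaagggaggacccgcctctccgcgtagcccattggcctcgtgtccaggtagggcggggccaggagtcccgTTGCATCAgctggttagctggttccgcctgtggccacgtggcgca
Sars: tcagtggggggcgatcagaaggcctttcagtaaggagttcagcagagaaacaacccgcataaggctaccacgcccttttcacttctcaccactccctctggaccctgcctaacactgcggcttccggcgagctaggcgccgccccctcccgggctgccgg
Yars2: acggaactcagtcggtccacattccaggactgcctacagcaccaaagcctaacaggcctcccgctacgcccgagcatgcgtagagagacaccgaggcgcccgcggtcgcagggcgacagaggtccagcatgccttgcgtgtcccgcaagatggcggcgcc

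Aars carried a pair of matches, at -112 to -105 and at 10 to 17 bases from the start. The match of Iars lay at 8 to 15, that of Yars at 4 to 11, that of Gars at -30 to -23 and that of Tars at -15 to -8. Of the cytosolic genes with a window, 4 of the 6 called and 1 of the 7 not called held a match, Tars being the 1. Tars was called with the length trend removed, and Yars was called in 11 of 18 alternative settings. The calls come from the comparison with which the members were chosen, so nothing is read from this split. The form TGATGCAA alone was present in 4 of 13 cytosolic genes, in 0 of 13 mitochondrial genes and in 1.03% of all genes with a window. Wars, Nars and Lars among the called genes, and Cars, Hars, Rars, Hars2 and Pars2 among the others, had no window in the table used. A match describes letters in a window and is not evidence of binding. Atf4 itself had 902, 859 and 864 FPKM with flavonoids, against 673, 537 and 449 FPKM in untreated cells, and its log2 change of 0.68 ± 0.17 (SE) passed limma's test with an adjusted p of 0.0408. The call of Atf4 was lost without untreated replicate 2 and without each flavonoids replicate in turn, with adjusted p of 0.113 to 0.183 in limma.

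**Figure D2:**
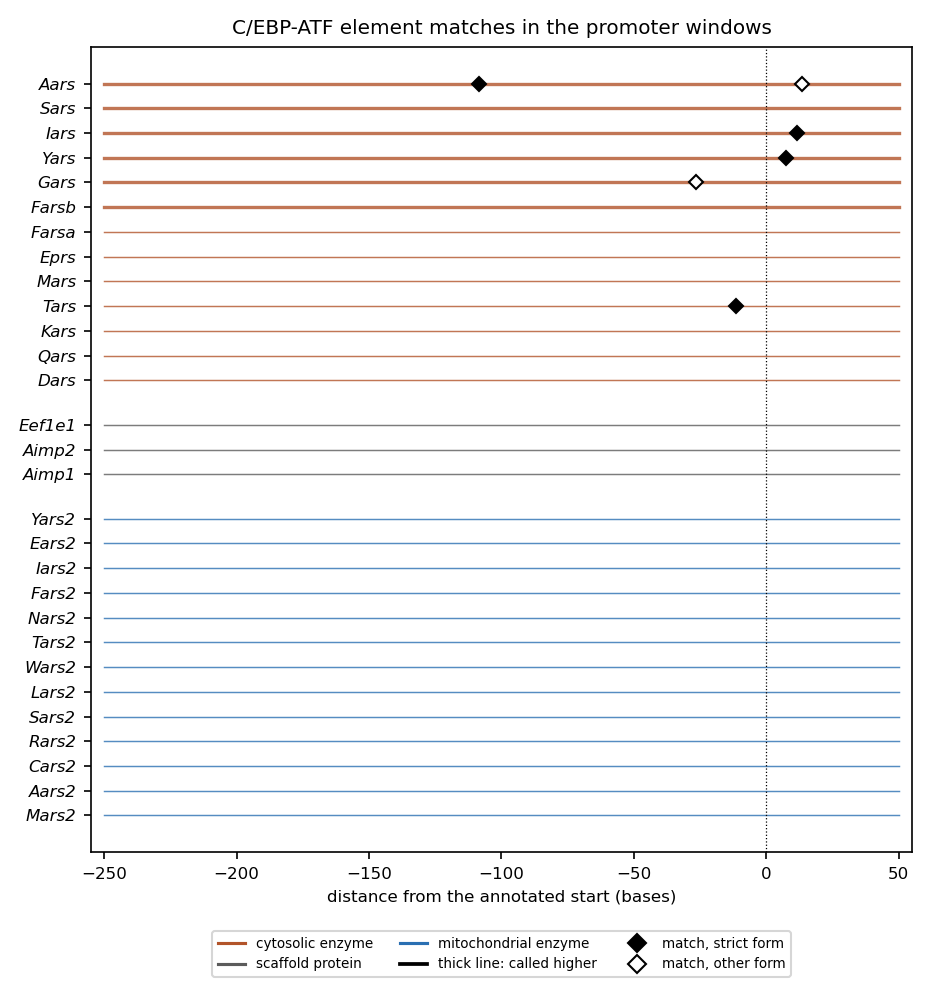
Positions of TGATGNAA matches, either strand, in the promoter windows of 29 members, as distance in bases from the annotated start; each line is 1 gene, thick where the gene was called higher. Filled diamonds are TGATGCAA and open diamonds other forms; all matches lie in 5 cytosolic genes, and the scaffold and mitochondrial lines carry none.

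Of the 10 cytosolic subunits that were not called, 9 had a positive change. Mars, the methionyl enzyme, had a log2 change of 0.40 ± 0.11 (SE) and missed the threshold with an adjusted p of 0.0551 in limma after Benjamini-Hochberg adjustment. Its exons overlap those of Ddit3 on the other strand by 68 bases, and whether counting used strand is not given. Cars, the cysteinyl enzyme, had 0.38 ± 0.11, Tars, the threonyl enzyme, had 0.37 ± 0.13, and Rars, the arginyl enzyme, had 0.35 ± 0.15. Kars, which encodes the lysyl enzymes of both compartments, had 0.21 ± 0.12.

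Eprs, a fusion of the glutamyl and prolyl enzymes, was uneven among treated samples. It had 65.5, 62.4 and 41.4 FPKM with flavonoids, against 36.6, 40.0 and 47.3 FPKM in untreated cells. Flavonoids replicate 3 fell inside the untreated range, so the groups overlapped, and the change of 0.42 ± 0.19 (SE) had the largest error of the cytosolic set.

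The 3 smallest cytosolic changes were those of Dars, Hars and Qars. Dars, the aspartyl enzyme, had 27.5, 26.3 and 16.8 FPKM with flavonoids, against 28.5, 27.5 and 25.1 FPKM in untreated cells, a log2 change of -0.22 ± 0.18 (SE). Without flavonoids replicate 3 that estimate was -0.0039. Hars, the histidyl enzyme, had 59.1, 62.6 and 64.0 FPKM with flavonoids, against 60.3, 62.4 and 51.0 FPKM in untreated cells, with a change of 0.10 ± 0.12. Qars, the glutaminyl enzyme, had 49.1, 49.4 and 57.5 FPKM with flavonoids, against 46.1, 49.0 and 45.5 FPKM in untreated cells, with a change of 0.14 ± 0.11. The groups of Dars and Hars overlapped, while those of Qars just failed to.

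**Figure D3:**
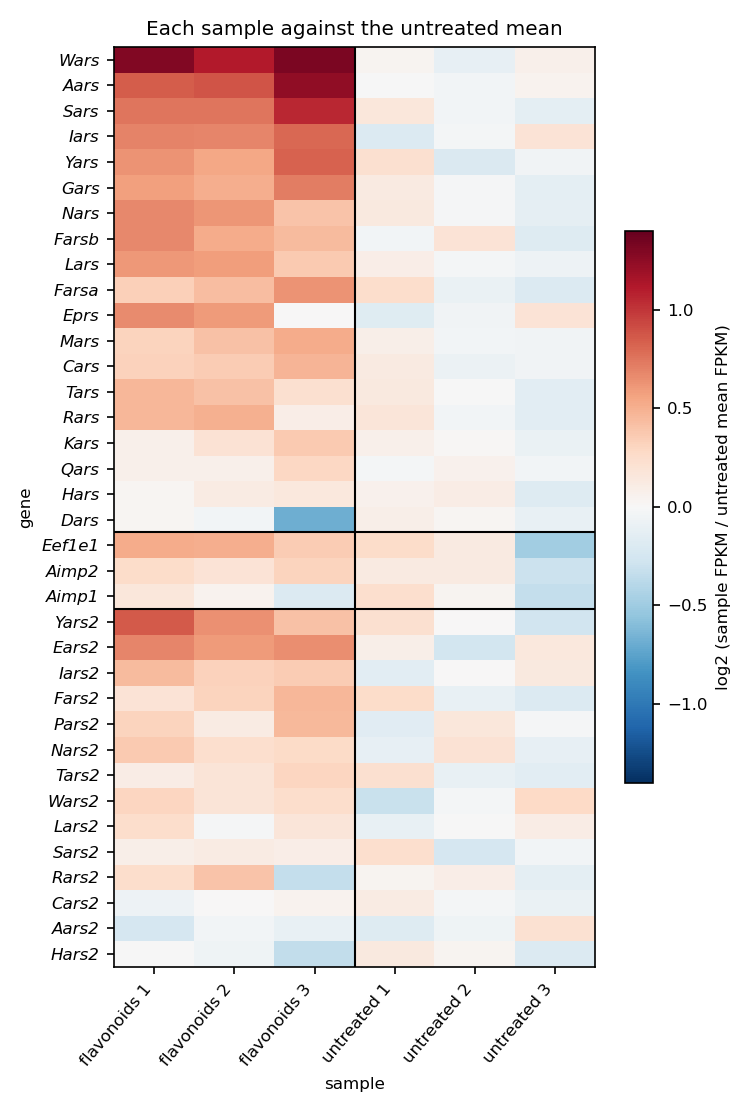
Log2 of each sample's FPKM over the mean of the untreated samples, for the 36 tested genes (rows, cytosolic, scaffold and mitochondrial from top to bottom) in the 3 flavonoids and 3 untreated samples (columns). The treated columns are red for Wars to Lars at the top and paler in the mitochondrial block, and flavonoids replicate 3 is darker than the other treated columns in Aars and Sars and blue in Dars.

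Flavonoids replicate 3 was the highest treated sample for 12 and the lowest for 7 of the 19 cytosolic genes, and the highest for 47.2% and the lowest for 33.3% of all tested members. Across all tested genes it was the highest for 37.7% and the lowest for 46.7%. The library therefore pulled members in both directions, upwards in Aars and Sars and downwards in Eprs, Rars and Dars. All 3 treated values lay above all 3 untreated values for 14 of the 19 cytosolic genes, and for 20 of the 36 tested members, against 17.0% of all tested genes. The median log2 change of the 19 cytosolic genes was 0.47, with a range of -0.22 to 1.18, beside a median of -0.02 over all tested genes.

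Summed over the 19 cytosolic genes, levels were 1677, 1675 and 1785 FPKM in flavonoids replicates 1, 2 and 3, against 1230, 1151 and 1103 FPKM in untreated replicates 1, 2 and 3. These sums averaged 1712 ± 63.0 FPKM with flavonoids and 1161 ± 64.5 FPKM in untreated cells (SD, n = 3 each), a ratio of 1.48. Aars, Gars, Nars, Sars, Kars and Tars each averaged over 100 FPKM across the 6 samples and make up most of that sum.

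The 11 cytosolic subunits outside the complex and the 8 enzymes within it are given side by side. Among those outside, 7 were called and the median log2 change was 0.57. Within the complex 2 were called, Iars and Lars, and the median was 0.38. Summed levels of the enzymes outside were 1218, 1204 and 1337 FPKM with flavonoids, against 850, 779 and 741 FPKM in untreated cells. Those of the complex enzymes were 459, 471 and 448 FPKM with flavonoids, against 380, 371 and 362 FPKM in untreated cells. The ratio of mean sums was thus 1.59 outside and 1.24 within the complex, and no test of that difference was made. By catalytic fold, 4 of 8 class I genes and 5 of 10 class II genes were called, with medians of 0.45 and 0.49. Over all tested genes 4.86% were called higher. Because the members were chosen with results of this comparison known, nothing is read from the counts of these subclasses.

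The scaffold proteins of the complex showed overlapping or barely separated groups. Eef1e1, the smallest scaffold protein, had 15.6, 15.4 and 13.9 FPKM with flavonoids, against 13.0, 11.8 and 7.73 FPKM in untreated cells, with a log2 change of 0.46 ± 0.18 (SE). Aimp2, which links the arms of the complex, had 49.1, 46.9 and 51.2 FPKM with flavonoids, against 45.0, 45.0 and 33.3 FPKM in untreated cells, with a change of 0.26 ± 0.14. Untreated replicate 3 was the low sample in both. Aimp1, also the source of a secreted cytokine, had 68.4, 63.2 and 53.6 FPKM with flavonoids, against 72.0, 62.9 and 48.5 FPKM in untreated cells, with a change of 0.03 ± 0.16 and fully overlapping groups.

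Of the 14 mitochondrial enzymes tested, 0 were called in either direction by limma, while 3 had an unadjusted p under 0.05 with a positive change and 0 with a negative one. limma's voom on the recovered fragments also called 0. Their median log2 change was 0.16 and 11 of the 14 were positive. Over all tested genes 12.8% had an unadjusted p under 0.05 with a positive change, and 47.4% had a positive change. The fragments behind a value of these 14 ran from 111 to 1522 per gene and library, against 403 to 43516 for the cytosolic genes. Because 1 is added to FPKM before the logarithm, changes of genes near 1 FPKM are understated, and with voom the mitochondrial median was 0.23.

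Yars2, the mitochondrial tyrosyl enzyme (chr16:16302965-16309640, plus strand), had the largest mitochondrial change. It had 13.1, 11.3 and 9.64 FPKM with flavonoids, against 8.47, 7.27 and 6.04 FPKM in untreated cells. The groups did not overlap, and both spread widely. The log2 change was 0.58 ± 0.16 (SE), with an adjusted p of 0.0533 in limma after Benjamini-Hochberg adjustment. It was called in 5 of 18 alternative settings, without untreated replicate 1 among them.

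Ears2, the mitochondrial glutamyl enzyme, had 1.72, 1.62 and 1.68 FPKM with flavonoids, against 1.14, 0.897 and 1.19 FPKM in untreated cells. Its groups were clearly apart, with a ratio of means of 1.56 and a log2 change of 0.37 ± 0.14 (SE) on the FPKM + 1 scale. Voom, which adds no such constant to FPKM, gave 0.65 for it. Iars2, the isoleucyl enzyme, had 17.2, 15.8 and 16.2 FPKM with flavonoids, against 11.4, 12.6 and 13.9 FPKM in untreated cells, with a change of 0.36 ± 0.12 and no overlap. Its exons overlap those of Rab3gap2, so some of its reads may belong to that gene.

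Fars2, the phenylalanyl enzyme, had 6.47, 7.02 and 7.81 FPKM with flavonoids, against 6.76, 5.30 and 4.97 FPKM in untreated cells, a change of 0.29 ± 0.15 (SE). Pars2, the prolyl enzyme, had 3.15, 2.77 and 3.50 FPKM with flavonoids, against 2.28, 2.85 and 2.51 FPKM in untreated cells, a change of 0.22 ± 0.14. Both had overlapping groups. The remaining positive changes were small, from 0.10 for Rars2, Sars2 and Lars2 to 0.14 for Wars2, 0.17 for Tars2 and 0.20 for Nars2.

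At the low end of the mitochondrial set lay Hars2, Aars2 and Cars2. Hars2, the histidyl enzyme, had 9.20, 8.85 and 7.31 FPKM with flavonoids, against 10.2, 9.49 and 8.13 FPKM in untreated cells, a change of -0.12 ± 0.14 (SE). Aars2, the alanyl enzyme, had 4.94, 5.67 and 5.43 FPKM with flavonoids, against 5.13, 5.60 and 6.76 FPKM in untreated cells, a change of -0.10 ± 0.14. Cars2, the cysteinyl enzyme, had 12.6, 13.3 and 13.7 FPKM with flavonoids, against 14.4, 13.1 and 12.4 FPKM in untreated cells, an estimate of 0.00 after rounding with an SE of 0.11. The groups of all 3 overlapped. Mars2, the methionyl enzyme, averaged 0.947 ± 0.190 FPKM with flavonoids and 0.998 ± 0.155 FPKM in untreated cells (SD, n = 3 each) and was under the level needed for the test.

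**Figure D4:**
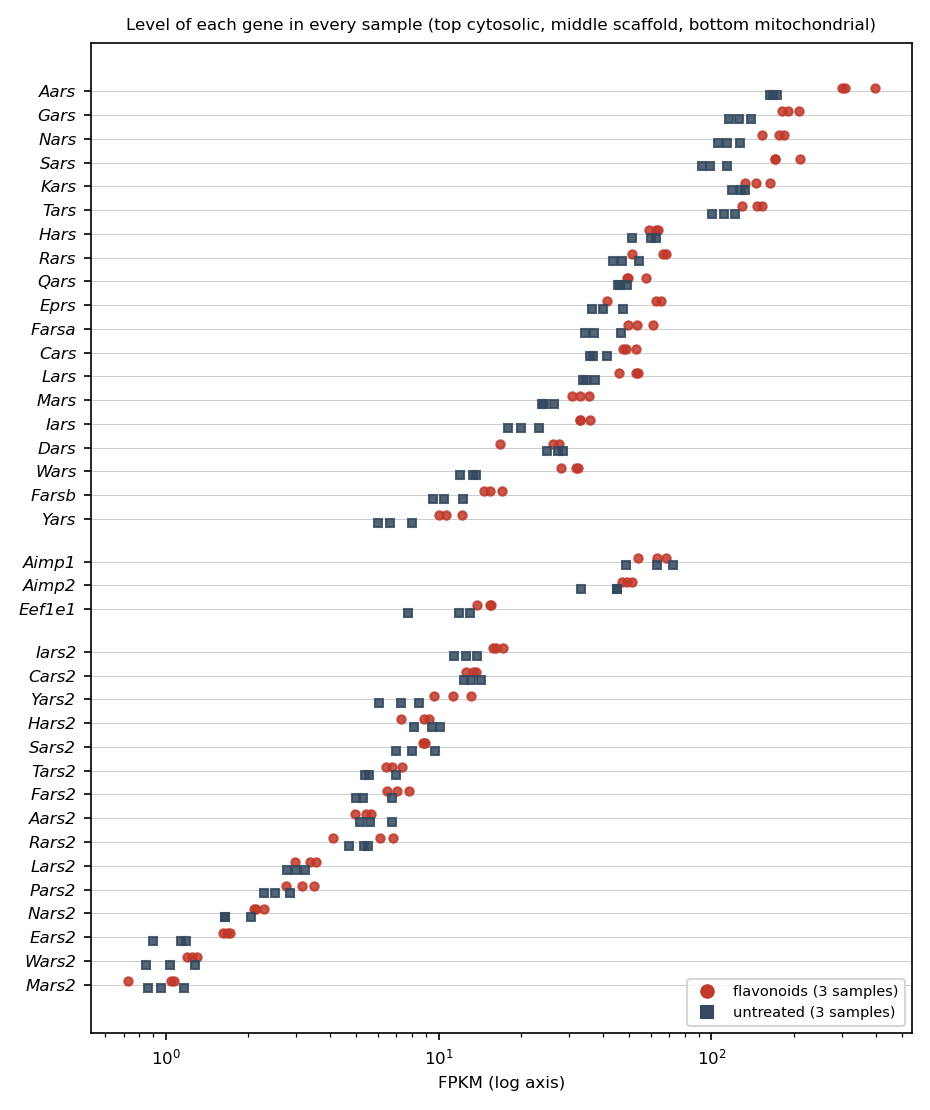
FPKM of each of the 37 genes in every sample on a log axis, with flavonoids as circles and untreated as squares; cytosolic enzymes are at the top, scaffold proteins in the middle and mitochondrial enzymes at the bottom, each ordered by mean level. Aars stands at the top near 168 FPKM in untreated cells and Mars2 at the bottom near 1 FPKM, and circles lie to the right of squares in most cytosolic rows.

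The cytosolic and mitochondrial enzymes for the same amino acid can be set side by side in 16 pairings, with Eprs paired with both Ears2 and Pars2, and Fars2 with both Farsa and Farsb. The cytosolic member had the higher level in untreated cells in 15 of 16, by up to 65.6-fold for Nars over Nars2. The exception was tyrosine, where Yars over Yars2 was 0.988 ± 0.245 with flavonoids and 0.957 ± 0.138 in untreated cells (SD, n = 3 each). The fitted log2 change was larger for the cytosolic member in all 15 pairings with both tested, by a median of 0.25. By the ratio of means, which adds no constant, this held for 15 of 16, glutamate being the other way round with 1.37 for Eprs and 1.56 for Ears2.

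The widest gap was that of alanine, where the level of Aars over Aars2 averaged 63.0 ± 9.37 with flavonoids and 29.2 ± 3.51 in untreated cells (SD, n = 3 each). For tryptophan, Wars over Wars2 averaged 24.6 ± 1.18 with flavonoids and 12.7 ± 2.70 in untreated cells. For serine, Sars over Sars2 averaged 20.9 ± 2.66 with flavonoids and 12.5 ± 1.45 in untreated cells. Tyrosine had the narrowest gap, with log2 changes of 0.61 for Yars and 0.58 for Yars2. The windows of both are shown above, with a match in Yars and none in Yars2.

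**Figure D5:**
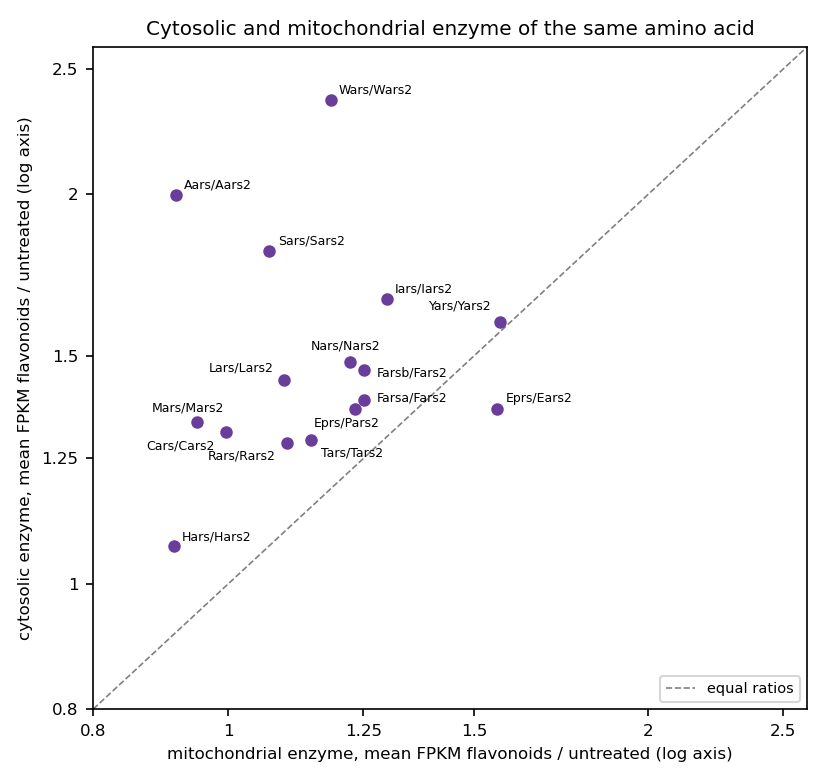
Ratio of mean FPKM, flavonoids over untreated, of the cytosolic enzyme (vertical, log axis) against that of the mitochondrial enzyme (horizontal, log axis) for 16 pairings, 1 point each, from 3 samples per group. Points above the dashed line have the larger ratio in the cytosolic gene; Eprs with Ears2 lies below it and Yars with Yars2 next to it.

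Neighbouring steps of tRNA use were described from lists of the pathway's other genes. In tRNA maturation and export 2 of 19 tested genes were called higher and 0 lower, against 4.86% and 5.13% of all tested genes. One was Xpot, the nuclear export receptor for tRNA, with 21.7, 19.2 and 19.6 FPKM with flavonoids, against 10.2, 10.3 and 10.9 FPKM in untreated cells, a log2 change of 0.88 ± 0.11 (SE) and an adjusted p of 0.00431 in limma. The other was Rpp25, a protein subunit of RNase P, which trims tRNA precursors, at 8.76 ± 0.984 FPKM with flavonoids and 4.14 ± 1.38 FPKM in untreated cells (SD, n = 3 each; limma, adjusted p of 0.0203). The call of Rpp25 was lost without untreated replicate 2 and without each flavonoids replicate in turn, with adjusted p of 0.0505 to 0.102 in limma, while that of Xpot was kept in every alternative. Both groups of Xpot were tight and far apart, and its size of change lay between those of Aars and Sars.

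No gene was called among 10 that act on charged or mischarged tRNA or complete mitochondrial charging, among 6 tested cytosolic elongation factors or among 5 mitochondrial ones. Over all tested genes 9.99% were called in either direction, so lists this short allow no reading of their counts. The lists had median log2 changes of 0.15, 0.24 and 0.06, in that order, beside 0.47 for the cytosolic and 0.16 for the mitochondrial synthetases. Of the valyl enzymes, which are not among the 37 genes, Vars2 was under 1 FPKM and Vars was listed at 0 in all 6 libraries. Not 1 of the 20 genes next to Vars on chromosome 17 averaged 1 FPKM or more, and 14 of them were also listed at 0. Among the 20 genes next to Vars2 on the same chromosome 1 averaged 1 FPKM or more and 7 were listed at 0, against 47.5% of all protein-coding genes at 1 FPKM or more, so the levels of Vars and Vars2 are not interpreted. Myc, a transcription factor known to raise genes of protein synthesis, had 85.1, 81.0 and 76.7 FPKM with flavonoids, against 33.9, 32.0 and 31.9 FPKM in untreated cells, with a log2 change of 1.29 ± 0.10 (SE). Eif2ak4, the kinase GCN2 that senses uncharged tRNA, had a log2 change of -0.27 ± 0.17 and was not called. Whether Atf4, Myc or the changes of other genes bear on the synthetases was not tested.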

How the data were processed

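RNA of 3 flavonoids and 3 untreated samples was sequenced on an Illumina HiSeq from TruSeq libraries, per the labels' protocols. The authors deposited 1 table of FPKM values, fragments scaled by gene length and by library size. FastQC, HISAT2 and the build mm10 are named in the submitters' processing notes. Not given in the sources used here are the counting tool, annotation, strand use and versions, so reads of overlapping genes, found for 14 of the 37 members, cannot be told apart.

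The members and lists were chosen with earlier results of these data known. limma 3.58.1 (R 4.3.3) was fitted, two-sided, to log2(FPKM + 1), its variance prior following the level, for the 11464 genes averaging 1 FPKM or more, and an adjusted p under 0.05 (Benjamini-Hochberg) made a call. The scale understates changes of low genes. Scripts were tested on simulated data. There limma called 2% of 1.25-fold, 38.2% of 1.5-fold and 94% of 2-fold changes, and 9.66% of its calls were unchanged genes. A gene not called may therefore still differ, by 1.5-fold or at times more, and a call may be false more often than the threshold states. Yars2, for one, was not called with a ratio of means of 1.565. Whole fragments were recovered for all 22235 genes above 0, within 0.005 fragments, from the steps between values. They give depth and cover counting error only. Samples were treated as unpaired.

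Values per sample are given for the 5 largest and 3 smallest changes of the cytosolic and of the mitochondrial enzymes, every scaffold protein and pair partners set side by side, with other members by change or count. Eprs, Xpot, Atf4 and Myc were added from the pairs and lists. Positions are from GENCODE M21 on GRCm38 and promoter windows from RefSeq on GRCm38.p6. Protein sequences were not used here. Alternatives were a pseudocount of 0.1 or 5, a minimum mean of 5 FPKM or none, TPM, median-ratio scaling, quantile normalization, removal of each library's length trend (loess, span 0.5), voom, a replicate block, other variance estimates, a stricter motif and leaving out each library. The rest was done in Python 3.11.15 (pandas 2.3.3, numpy 2.4.6; figures with matplotlib 3.10.9).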

Additional observations from a re-analysis of the deposited data

How the results depend on the processing

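The count of cytosolic enzymes called higher was 9 and went to 14 with the length trend removed and to 4 with the replicate block, which kept Aars, Iars, Sars and Wars. Leaving out 1 library gave 1 to 11. The 1, Wars, came without untreated replicate 2, and 3 remained called without flavonoids replicate 1 or 2. With the length trend removed 1 scaffold protein, Eef1e1, was called, against 0. Mitochondrial enzymes called higher were 0, with 1, Yars2, at a minimum mean of 5 FPKM, with median-ratio scaling and with quantile normalization, and 2, Yars2 and Iars2, with the length trend removed. Leaving out 1 library gave 0 to 1. No member was called lower in any setting.

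All genes called higher numbered 557, with 317 under no filter, 1234 with the length trend removed and 220 with the block, and 65 to 876 without 1 library. Those called lower numbered 588, with 324, 1238 and 237 in those settings, and 81 to 833 without 1 library. The block was tried although libraries of the same number did not deviate together (correlations of -0.143, -0.117 and -0.203), and none correlated best with its own number. With few libraries per group and length trends that differed among the untreated ones, these correlations cannot decide whether the numbers pair the samples. The loss of calls under the block is therefore not set aside. The block left the median change of the cytosolic enzymes at 0.47. The median change of the cytosolic enzymes, 0.47, was 0.40 with a pseudocount of 5, 0.42 with TPM and 0.43 to 0.53 without 1 library. The mitochondrial median, 0.16, was 0.22 with a pseudocount of 0.1, 0.075 with a pseudocount of 5, 0.10 at a minimum mean of 5 FPKM, 0.26 with quantile normalization, 0.19 with the length trend removed, 0.23 with voom and 0.14 to 0.17 without 1 library. The median of all tested genes stayed between -0.08 and 0.02. The causes were not tested.

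Of the 36 tested members 32 kept their sign in every alternative in which they were tested, 17 for Ears2, Lars2, Nars2, Pars2 and Wars2 and 18 for the others, Cars2, Rars2, Sars2 and Aimp1 being the exceptions, and the 9 called members were positive in each. Wars was called in 18 of 18, Aars and Sars in 17, Iars in 15, Lars in 14, Gars and Nars in 13, Yars in 11 and Farsb in 8. The tested mitochondrial enzymes rest on 111 to 1522 fragments a library and the cytosolic ones on 403 to 43516.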
